A study of Mus musculus with 17 samples.

Results

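The 8-cell mouse embryo was compared with the stages on either side of it in this series, the 2-cell embryo and the blastocyst. The comparison set the 4 arrays labelled 8-Cell against the midpoint of 2 stage means, 3 arrays labelled 2-Cell and 3 labelled Blastocyst, each stage with equal weight. All 12488 probe sets of the array design were considered, 66 control probe sets were set aside, and 8067 passed a filter on dim values, standing for 6044 genes with 1 probe set each. The whole series holds 17 arrays of 5 stages, the other 7 being 4 of oocytes and 3 of 1-cell embryos. Total RNA of whole mouse embryos was amplified through 2 rounds of in vitro transcription (IVT, copying RNA from a cDNA template) before hybridisation, per the labels, and each array gives 1 signal per probe set. Strain, hours of development, embryos per sample and culture conditions are not stated in the labels, and no group carries a mutation or treatment by the labels. Nothing in the labels says whether arrays of a stage came from separate embryo pools. The p-values therefore reflect the scatter among these arrays alone, and that scatter may be purely technical. In whole embryos, a change in a transcript per cell and a change in the number of cells that hold it cannot be told apart.

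By the 8-cell stage the mouse embryo has replaced most of the RNA laid down in the oocyte with RNA from its own genome. During this stage the blastomeres flatten against each other in compaction, which rests on E-cadherin, and each cell acquires an outer and an inner pole. Outer cells later form the trophectoderm, the epithelium that pumps fluid into the blastocyst cavity, and inner cells form the inner cell mass. The early embryo lives on pyruvate and lactate and takes up glucose readily only later, when it approaches the blastocyst stage.

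The 8-Cell arrays resembled each other closely. Correlations of log2 signals across the probe sets tested lay between 0.943 and 0.956 among them, 0.792 and 0.861 with Blastocyst arrays, and 0.647 and 0.759 with 2-Cell arrays. Of the 2-Cell arrays, number 3 lay nearest to the 8-cell stage, at 0.740 to 0.759. The 50 brightest probe sets took 16.9% to 21.5% of the signal on 8-Cell arrays, against 12.4% to 13.8% and 13.6% to 15.3% on 2-Cell and Blastocyst arrays. The 9 probe sets for bacterial and phage spikes measure control RNAs that are not of the embryo. They were on average 1.88-fold brighter at the 8-cell stage than at the midpoint, a log2 difference of 0.91. Scaling the arrays to those spikes in place of the deposited scaling moved the median difference of all genes from -0.03 to -0.79, so every direction below is relative to the bulk of the transcripts on an array and not per embryo. Spike scaling gives no amount per embryo either. The embryos per sample are not stated, and the step at which the spikes were added is not known here. Spikes added after amplification would not follow the RNA content of the embryos at all. A spike-scaled median of a gene list below is to be read against that -0.79. The part of spike amounts in any result was not tested. On 8-Cell array 2 the oviduct transcripts Ovgp1 and Ltf stood far above the other 8-Cell arrays, as described with the markers of other cells. Precision is limited by the number of arrays.

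Of the 6044 genes, 1319 (21.8%) were higher at the 8-cell stage than at the midpoint and 1601 (26.5%) were lower, at an adjusted p under 0.05 in limma, a linear model fitted to all 17 arrays. With spike scaling the counts were 181 higher and 3647 lower. Differences are given on the scale of log2(signal + 11), which understates the change of dim genes, and folds are the same differences on a linear scale. The change reached 2-fold for 500 of the genes called higher and 771 of those called lower. A gene is also called against the midpoint when it completes its change in a single step, so each gene was classed by both steps. A peak is a gene above both neighbours with both steps called, and a dip is the reverse. There were 492 peaks (8.14%) and 511 dips (8.45%). In 414 of the peaks (6.85%) and 408 of the dips (6.75%) no 8-Cell array overlapped any of the 6 arrays of the neighbouring stages. Counts for each gene list below are to be read against 21.8% higher, 26.5% lower, 8.14% peaks and 8.45% dips.

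Genes called higher without peaking were mostly those that had risen from the 2-cell level and then stayed, 485 genes, or that had stayed and then fell by the blastocyst, 234 genes. Genes called lower without dipping were mostly 607 that had fallen and stayed and 338 that rose only later. Peaks and dips differed in their earlier levels. Non-overlapping dips had a median signal of 337 in oocytes, 333 in 1-cell, 246 in 2-cell, 73.6 in 8-cell embryos and 203 in blastocysts. Non-overlapping peaks had medians of 114, 96.2, 243, 660 and 254 in the same order, while medians over all genes tested stayed between 100 and 122. Oocyte means exceeded blastocyst means for 278 of the dips (68.1%) and 104 of the peaks (25.1%), against 52.8% of all genes. Most of the non-overlapping genes also stood outside the oocyte and 1-cell arrays. The 8-Cell arrays lay above all 13 other arrays for 331 of the 414 peaks (80%) and below all 13 for 324 of the 408 dips (79.4%). These genes were chosen for clearing the neighbouring arrays, so only the oocyte and 1-cell arrays could differ. The same share was not taken over all genes.

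**Figure D1:**
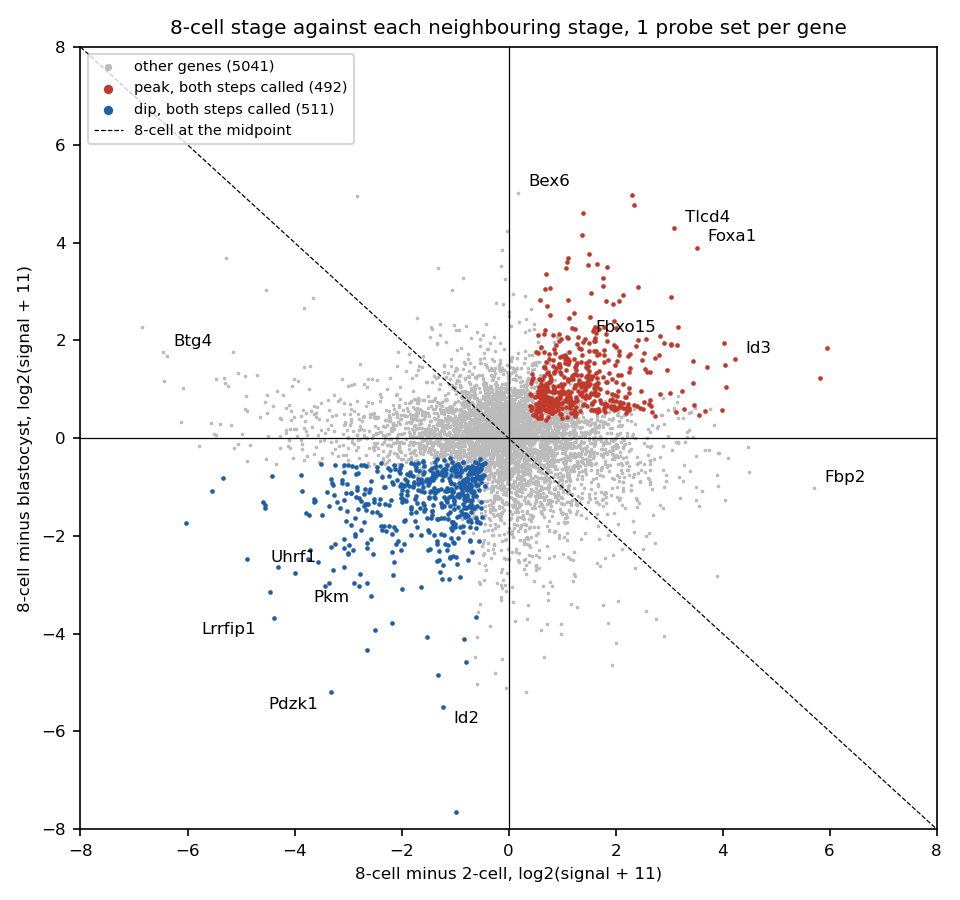
Each point is 1 of 6044 genes, placed by its difference between the 8-cell and the 2-cell stage (horizontal axis) and between the 8-cell stage and the blastocyst (vertical axis), both on the log2(signal + 11) scale. The 492 peaks fill the upper right and the 511 dips the lower left, and genes on the dashed line have an 8-cell level at the midpoint of both neighbours.

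In what follows, before and after stand for the 2-cell stage and the blastocyst. The strongest peaks and dips below were ranked among genes without overlap of arrays. The gene farthest above both neighbours was Foxa1, a forkhead factor known for opening chromatin in endoderm-derived tissue. Its signal on the 4 8-Cell arrays was 468, 428, 360 and 556, against 17.1, 20.8 and 61.5 on the 2-Cell and 28.1, 15.5 and 17.3 on the Blastocyst arrays. The stage stood clear of all 6 neighbouring arrays, which the ranking requires. The difference from the midpoint was 3.70 (SE 0.27, adjusted p = 4.34e-10), or 13-fold. Tlcd4, a membrane protein of the TLC family, had 8-cell signals of 286, 435, 274 and 374, 2-cell signals of 29.2, 30.2 and 29.7 and blastocyst signals of 2.3, 10.8 and 8.3. No array of either neighbour came near the 8-Cell arrays, and its difference was 3.69 (SE 0.21, adjusted p = 1.64e-11). Arg1, the arginase that turns arginine into ornithine and urea, read 609.6, 382, 622 and 685 at the 8-cell stage. It read 102, 116 and 97.2 at the 2-cell stage and 13.9, 2.2 and 7.2 in the blastocyst, a difference of 3.64 (SE 0.21, adjusted p = 3.47e-11). Tspan4, a tetraspanin of the cell surface, ran alongside, with 573–769.9 on the 8-Cell, 98–163 on the 2-Cell and 5.6–28.1 on the Blastocyst arrays.

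Alppl2, an alkaline phosphatase of the early embryo, reached 6090.3, 6296, 5158 and 6773 on the 8-Cell arrays. Its neighbours read 1040.2–1974 at the 2-cell stage and 652–1128 in the blastocyst, and the difference was 2.53 (SE 0.18, adjusted p = 4.21e-10). Timm8a1, a chaperone of protein import into mitochondria, read 2601–3082 against 344–454 and 514–764. Pemt, which methylates phosphatidylethanolamine to phosphatidylcholine, read 1456–2034 against 339–452 and 186–329.8. The remaining members of the 15 strongest peaks were Ctsz, Lamp2 and Ctsa of the lysosome, Parp8, Snx5, a sorting nexin of endosomes, Zfp97, Gabrd, a GABA receptor subunit, and Cited1, a transcriptional coactivator. A second probe set of Snx5 was called higher than the midpoint too but was no peak, with stage means of 12.6, 173 and 251. Each of the 15 was at least 3.88-fold above its nearer neighbour, and each remained a peak when arrays were scaled to the spikes. Gabrd was dim, at 49.6–91.1 on the 8-Cell arrays, so the offset understates its fold of 4.37. Outside these 15, Slc5a6, the sodium-dependent vitamin transporter, was a peak as well, at 2432, 2458, 2345 and 3083 on the 8-Cell arrays, 405–1045 before and 330.2–401 after. Of the 73 peaks named in the text 19 remained peaks with spike scaling, and all 57 dips named remained dips. The spikes were brighter at the 8-cell stage by log2 differences of 0.64 over the 2-cell stage and 1.175 over the blastocyst. Scaling to them lowers the 8-cell values against both neighbours, so it puts peaks to a test but not dips. Another probe set was tested for 27 of the peaks and dips named. In 10 genes each had the same shape, and in 11 each was called the same way against the midpoint but at least 1 was no peak or dip: Snx5, Lamp2, Lrrfip1, Pdzk1, Myo5b, Eif1a, Srsf3, Wwtr1, Gata6, Il6st and Tead4. In the other 6, Mrps25, Rhoa, Rfc5, Pttg1, Nap1l1 and Crxos, at least 1 was not called the same way.

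**Figure D2:**
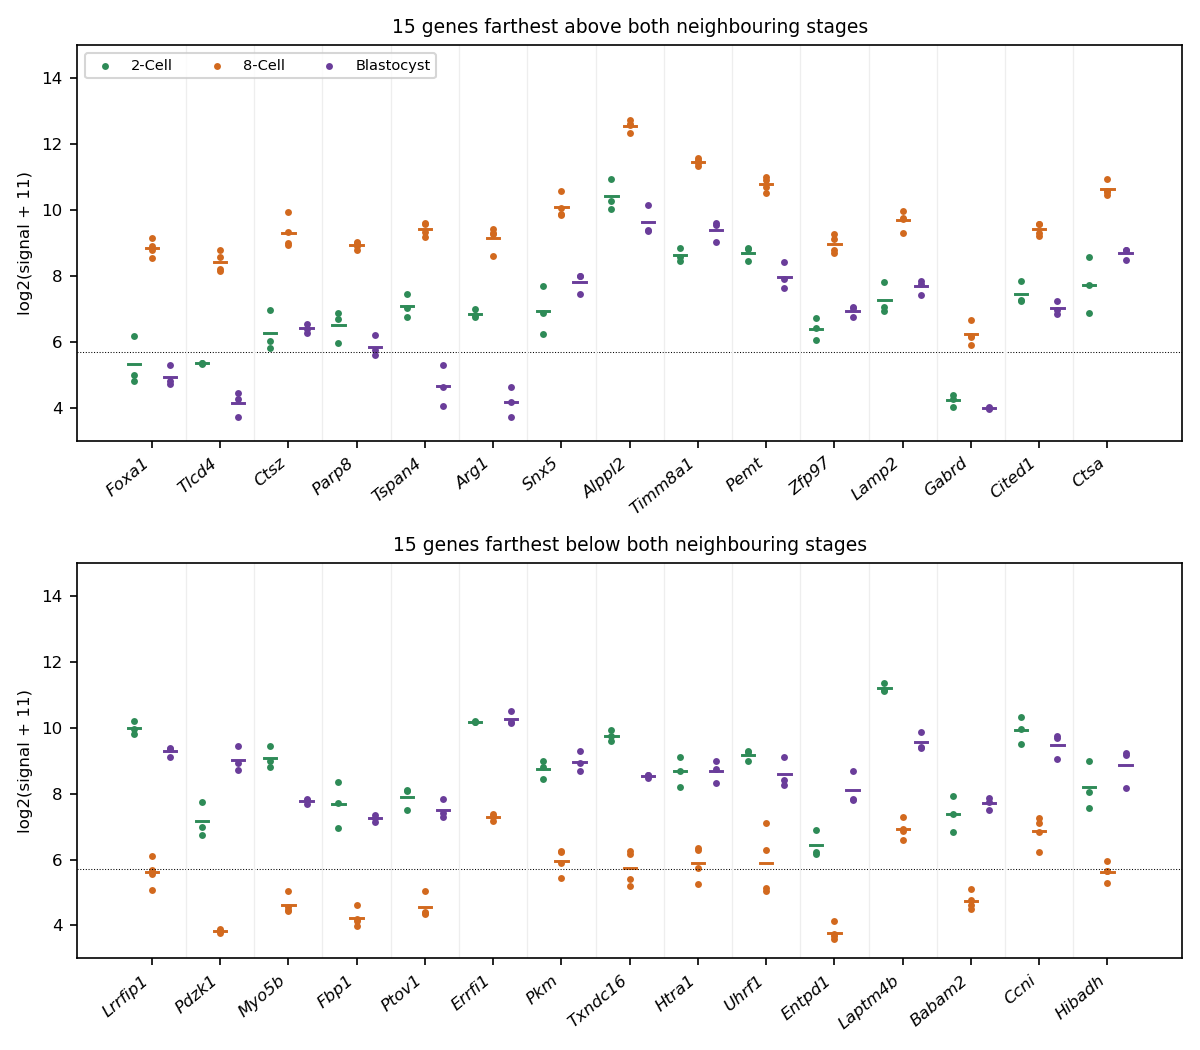
Signals on the log2(signal + 11) scale of the 15 peak genes (top) and 15 dip genes (bottom) that lie farthest from the nearer neighbour, with 1 point per array and a bar at the stage mean. The dotted line marks the filter on dim values at a signal of 41.1. The genes were taken from peaks and dips without overlap of arrays, so the 4 8-Cell points lie clear of the 6 others by that choice.

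With the deposited scaling, dips reached farther than peaks. At least 4-fold separated 40 of the 408 non-overlapping dips from their nearer neighbour, against 13 of the 414 peaks. These counts were not taken in other settings. Lrrfip1, a protein that binds double-stranded RNA and the cytoskeletal regulator flightless, fell to 22.5, 58.6, 35.9 and 40.4 on the 8-Cell arrays. It had read 1174, 879 and 983 at the 2-cell stage and read 641, 656 and 544 in the blastocyst, with no overlap and a difference of -4.03 (SE 0.16, adjusted p = 2.29e-13). Pdzk1, a scaffold of transporters in apical membranes, was at the bottom of the scale, at 3.8, 3.3, 2.5 and 3.3. Its neighbours stood at 202, 96.3 and 116 and 409, 478 and 688, a difference of -4.26 (SE 0.17, adjusted p = 2.29e-13). Myo5b, the myosin motor that carries recycling endosomes to the apical surface, read 11.3, 21.9, 12.7 and 10.7 against 685, 503 and 441 at the 2-cell stage. It returned to 216, 213 and 196 in the blastocyst, and the difference was -3.80 (SE 0.16, adjusted p = 2.29e-13).

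Errfi1, an inhibitor of the EGF receptor, had nearly equal levels on both sides. It read 1135, 1146 and 1170.4 at the 2-cell stage and 1112, 1449 and 1138 in the blastocyst, and 150.2, 146, 132 and 156 between them. The 8-cell level was 7.63-fold below the midpoint, at -2.93 (SE 0.12, adjusted p = 2.29e-13). Uhrf1, which guides DNA methyltransferase 1 to newly copied DNA, varied among the 8-Cell arrays. These read 22.1, 23.8, 67.8 and 127, still all below the 499–620 of the 2-cell and the 296–547 of the blastocyst stage, with a difference of -3.00 (SE 0.30, adjusted p = 5.6e-08). Laptm4b, a lysosomal membrane protein, lost most of its signal and regained part. It went from 2218–2643 at the 2-cell stage to 85.8–145 at the 8-cell stage and came back to 660.3–920.4. The other 15 strongest dips were Fbp1 and Pkm of sugar metabolism, Hibadh of valine breakdown, Ptov1, Txndc16, the secreted protease Htra1, Entpd1, which degrades extracellular ATP, Babam2 of the BRCA1-A complex, and the cyclin Ccni. Their folds below the nearer neighbour lay between 5.9 and 8.13.

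Genes that completed a change around the 8-cell stage formed the other extreme against the midpoint. Fbp2, the muscle form of the gluconeogenic enzyme fructose-1,6-bisphosphatase, rose from 17.2, 4.7 and 2.5 at the 2-cell stage to 865, 957, 985 and 969.6, and on to 1894, 1819.7 and 2093 in the blastocyst. Gja1, which codes for the gap junction protein connexin 43, read 379, 372 and 1011 at the 2-cell and 7030.2, 8026, 7508 and 6513 at the 8-cell stage. Its blastocyst signals of 5599, 4864 and 4079.6 were lower on all arrays, yet that step did not pass the test (adjusted p = 0.196). Sema4b, Xpot, the exportin for transfer RNA, Cpeb2 and Surf2 had likewise risen by the 8-cell stage, by log2 differences of 4.47, 3.84, 3.48 and 3.16. Sema4b stood at 2.14 against the midpoint, while its other probe sets gave 0.48, which was called, and 0.49, which was not. Bex6 and Dmrtb1 did not differ between the 2-cell and 8-cell stages by the test and fell by the blastocyst. Bex6 read 1799–2178, 2067–2858 and then 49.1–76.3.

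Among genes called lower, most of the largest were transcripts that had fallen by the 8-cell stage and stayed low. Miox, which breaks down inositol, fell from 955–1376 at the 2-cell stage to 3.2–10.8. Cdo1, the cysteine dioxygenase, Pld1, a phospholipase, the oocyte growth factor Bmp15, Rasa4, Sowaha and Tcl1b1 fell over the same step, by differences between -6.44 and -4.88, and Tcl1b1 fell further after it. Lcp1, an actin-bundling protein, ran the other way, at 10.4–44.1 on the 8-Cell arrays and 1095–1298 in the blastocyst.

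Transcripts of glucose uptake and glycolysis were called lower more often than higher at the 8-cell stage. Of 25 genes tested, 14 were called lower than the midpoint (all genes: 26.5%) and 7 higher, and 7 were dips (all genes: 8.45%). The list's median difference was -0.76, against -0.03 for all genes, and -1.18 with spike scaling. The dips ran along the pathway, from the glucose transporter Slc2a1 through Pfkl, Aldoc, Tpi1 and Pgk1 to Pkm and Ldha. Pkm, pyruvate kinase, read 63.6, 66.1, 32.2 and 48.4 at the 8-cell stage. Its neighbours read 494, 438 and 338 and 478, 404 and 612, a difference of -2.90 (SE 0.18, adjusted p = 7.04e-11). Ldha, lactate dehydrogenase, read 18.9, 44, 81.7 and 34.6 against 445, 515 and 331 at the 2-cell and 249.7, 243 and 211 at the blastocyst stage. All 4 arrays lay below both neighbours, and the difference was -2.67 (SE 0.31, adjusted p = 3.61e-07).

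Ldha was also low earlier, at 11.6–58.6 in oocytes and 6.4–21.4 in 1-cell embryos, and its 2-cell level stood above both. Pgk1, phosphoglycerate kinase, read 135, 179.5, 129 and 165 at the 8-cell stage against 801, 702 and 674 and 793, 634 and 1019.7 on either side. Its difference was -2.26 (SE 0.14, adjusted p = 7.98e-11), and here the oocyte and 1-cell levels, 255–304 and 302–354, also lay above the 8-cell level. Tpi1, triosephosphate isomerase, read 90.8–163 against 196–249 and 578–956, and Pfkl, the liver phosphofructokinase, 71.3–95.7 against 165–256 and 256–289.7. Slc2a1 and Aldoc were dim. Slc2a1 read 4.3–7.6 at the 8-cell stage against 12.7–37.2 before and 45.3–93.8 after. Aldoc, an aldolase, read 12.4–31 against 33.6–47.7 before and 33.7–56.4 after, and its call was lost without 8-Cell array 2 (-0.62). Gapdh was measured by control probe sets at its 3' end, middle and 5' end, which were outside the tests. On all 3 the 8-Cell arrays lay below both neighbours without overlap, with stage means of 1140, 680 and 171 at the 2-cell stage, 191, 202 and 91.7 at the 8-cell stage and 2980, 1320 and 485 in the blastocyst, differences of -3.20, -2.21 and -1.62 with no adjusted p. The 3' to 5' ratio of these Gapdh probe sets was also lower on the 8-Cell arrays, at log2 values of 0.22 to 1.55, than on the 2-Cell (2.43 to 3.03) and Blastocyst arrays (2.38 to 2.88), while that of Actb was 1.79 to 2.07, 1.62 to 2.26 and 0.94 to 1.24; the part of RNA quality was not tested.

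The decline did not cover the whole pathway. Pgam1, phosphoglycerate mutase, peaked at 1130, 1119, 1154 and 1310.2 on the 8-Cell arrays, over 484–751 and 504–682, with a difference of 0.96 (SE 0.15, adjusted p = 1.47e-05). Hk1, the hexokinase that commits glucose to metabolism, was also classed as a peak, at 0.64 (adjusted p = 0.00516), a direction that turned to -0.26 with spike scaling. Tkt, transketolase of the pentose phosphate pathway, and Pdha1, which feeds pyruvate to the citric acid cycle, had risen by the 8-cell stage, from 24.5–81.7 to 423–521 and from 213–289.6 to 1339–2610.5. The hexokinase Hk2 and the transporter Slc2a3 were highest in the blastocyst. Hk2 climbed from 28.9–58.8 over 153–435 to 1418–1916, and Slc2a3 stood at 62.9–112 before reaching 366–716. Fbp1 and Fbp2 moved in opposite directions. Fbp1, the liver form, fell to 7.3, 13.5, 4.9 and 6.7 from 317, 198 and 113 and came back to 144, 154 and 130, a difference of -3.23 (SE 0.20, adjusted p = 7.97e-11), over the same steps in which Fbp2 appeared. Hif1a, the oxygen-sensitive factor known to drive glycolytic genes, was itself a dip, at 106, 254, 415 and 207 against 1741, 1362 and 994 before and 1279, 1289.8 and 998 after, with a difference of -2.45 (SE 0.24, adjusted p = 3.55e-08), and a second probe set gave -2.53.

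**Figure D3:**
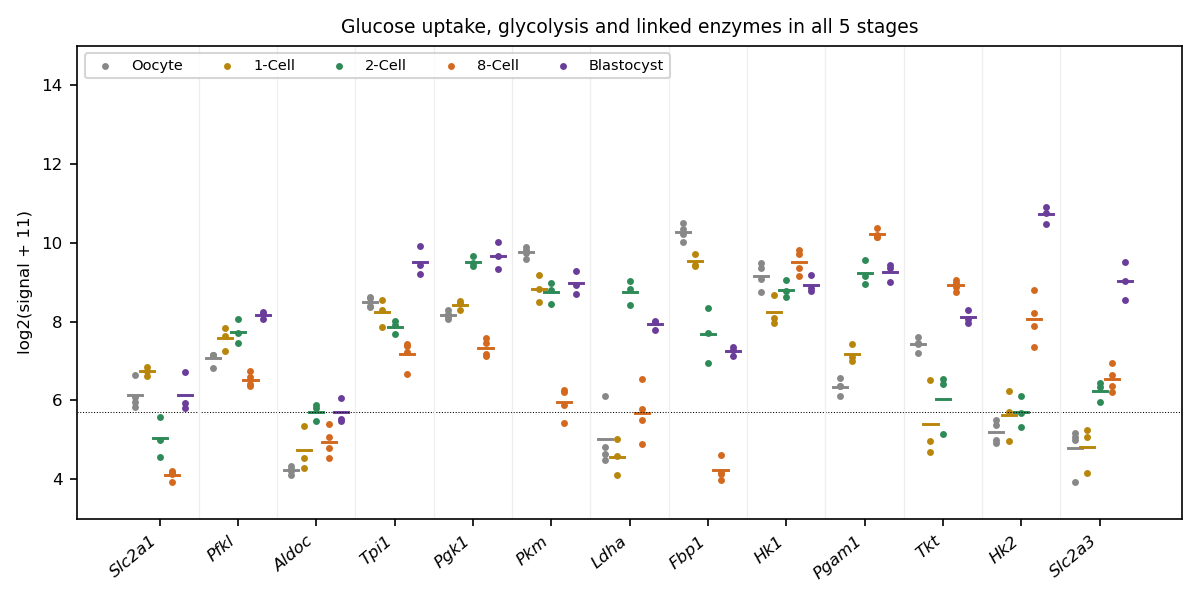
Signals on the log2(signal + 11) scale of 13 genes of glucose uptake, glycolysis and linked enzymes in all 5 stages, with 1 point per array and a bar at each stage mean. The 8-cell mean lies below both neighbours from Slc2a1 to Fbp1 and above both in Hk1 and Pgam1, while Hk2 and Slc2a3 are highest in the blastocyst.

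Promoter sequences were searched for the 7 glycolytic dips, which were picked for that shape. Several carry the letters at the core of hypoxia response elements. The windows are the 250 bases before a transcription start in RefSeq, build GRCm38.p6, and all 7 genes had at least 1. The search was for ACGTG on both strands, written CACGT when it lies on the other strand; CACGTG, the E-box, contains it on both. Capitals mark every match, 5′ to 3′ on the gene's strand, for Ldha at chr7:46845554-46845803, Pgk1 at chrX:106186850-106187099 and Slc2a1 at chr4:119108495-119108744, all on the plus strand.
Ldha: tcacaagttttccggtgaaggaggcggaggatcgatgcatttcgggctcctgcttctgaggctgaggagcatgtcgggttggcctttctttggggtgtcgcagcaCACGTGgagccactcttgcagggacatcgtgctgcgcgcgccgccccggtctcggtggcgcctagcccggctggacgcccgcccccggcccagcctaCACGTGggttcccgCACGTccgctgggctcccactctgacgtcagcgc
Pgk1: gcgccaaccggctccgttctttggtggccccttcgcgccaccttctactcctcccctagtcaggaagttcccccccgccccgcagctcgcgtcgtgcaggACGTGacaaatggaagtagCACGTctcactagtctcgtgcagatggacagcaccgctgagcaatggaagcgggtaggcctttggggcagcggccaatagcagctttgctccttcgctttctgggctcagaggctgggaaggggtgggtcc
Slc2a1: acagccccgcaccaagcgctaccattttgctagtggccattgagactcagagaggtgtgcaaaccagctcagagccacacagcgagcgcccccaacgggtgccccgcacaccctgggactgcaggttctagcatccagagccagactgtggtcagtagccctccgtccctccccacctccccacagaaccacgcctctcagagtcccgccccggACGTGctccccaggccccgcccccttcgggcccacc
Ldha held 5 matches, 4 of them in 2 copies of CACGTG, Pgk1 held 2 and Slc2a1 held 1. At least 1 start held a match in 4 of the 7 genes, Pkm being the fourth, and none was found for Pfkl, Aldoc and Tpi1. Windows of Gapdh and Hif1a were searched as well. Gapdh, low on its control probe sets, held no match, and Hif1a held 3. Matches in glycolytic genes that do not dip were not counted, so a link between match and dip was not tested. Over the whole table, 18.5% of 27025 genes held a match at some start and 16.6% of 32851 windows did. A match describes letters in the window and does not show that a factor binds there. Any part of Hif1a or of these letters in the dips was not tested.

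Genes for making ribosomes were high at the 8-cell stage. Of 27 genes for cytosolic ribosomal proteins, 23 were called higher, 16 as peaks (all genes: 8.14%), and none lower. Their median difference was 1.28, 0.75 after quantile normalization, which left 2 peaks, and 0.36 with spike scaling, which left 6 called higher and 1 lower. Rps3 read 14556, 11761, 10305 and 10189 at the 8-cell stage against 1562, 2030.5 and 2473 at the 2-cell and 6798, 7679 and 6506 at the blastocyst stage. The 8-Cell arrays lay above all 6 others, with a difference of 1.63 (SE 0.18, adjusted p = 2.71e-07). Rpl7a rose further, from 844, 874 and 1166 to 8984, 9728, 8029 and 5230.4, before falling to 4075, 5233 and 3199. 8-Cell array 4 lay just under the highest Blastocyst array, and its difference was 1.97 (SE 0.17, adjusted p = 8.67e-09). Rpl7 read 10056–14094 against 2206–3566 before and 6813–9452 after. Rps24 read 15717–25663 against 10156–14340.3 and 9186–10804, but its call was lost after quantile normalization (0.27) and its sign turned with spike scaling (-0.09). Rps18 had risen by 2.97 from the 2-cell stage, and its later fall missed the threshold (adjusted p = 0.0554). Ribosomal protein genes have many near-identical processed copies, which these probe sets may not separate.

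The machinery that assembles ribosomes in the nucleolus was high as well. Of 60 genes, 42 were called higher (70%, all genes: 21.8%), 22 as peaks (36.7%, all genes: 8.14%), and none lower. The median difference was 0.69, turning to -0.20 with spike scaling (all genes: -0.79). Ddx21, an RNA helicase of ribosomal RNA transcription and processing, went from 45.8, 59.5 and 52.1 at the 2-cell stage to 1039, 881, 1252 and 1016 at the 8-cell stage. It fell back to 375, 354 and 353, without overlap on either side and with a difference of 2.78 (SE 0.15, adjusted p = 1.64e-11). Wdr43 and Wdr74, both factors of pre-ribosome assembly, peaked from nearly equal neighbours. Wdr43 read 479–549.6 against 164–194 before and 158–177 after, and Wdr74 866–1291 against 163–545 before and 299–310.3 after. The abundant nucleolar proteins Npm1 and Ncl, and Nop58 of the small nucleolar ribonucleoproteins, were peaks at differences of 1.16, 1.18 and 1.23. None of the 60 remained a peak with spike scaling.

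**Figure D4:**
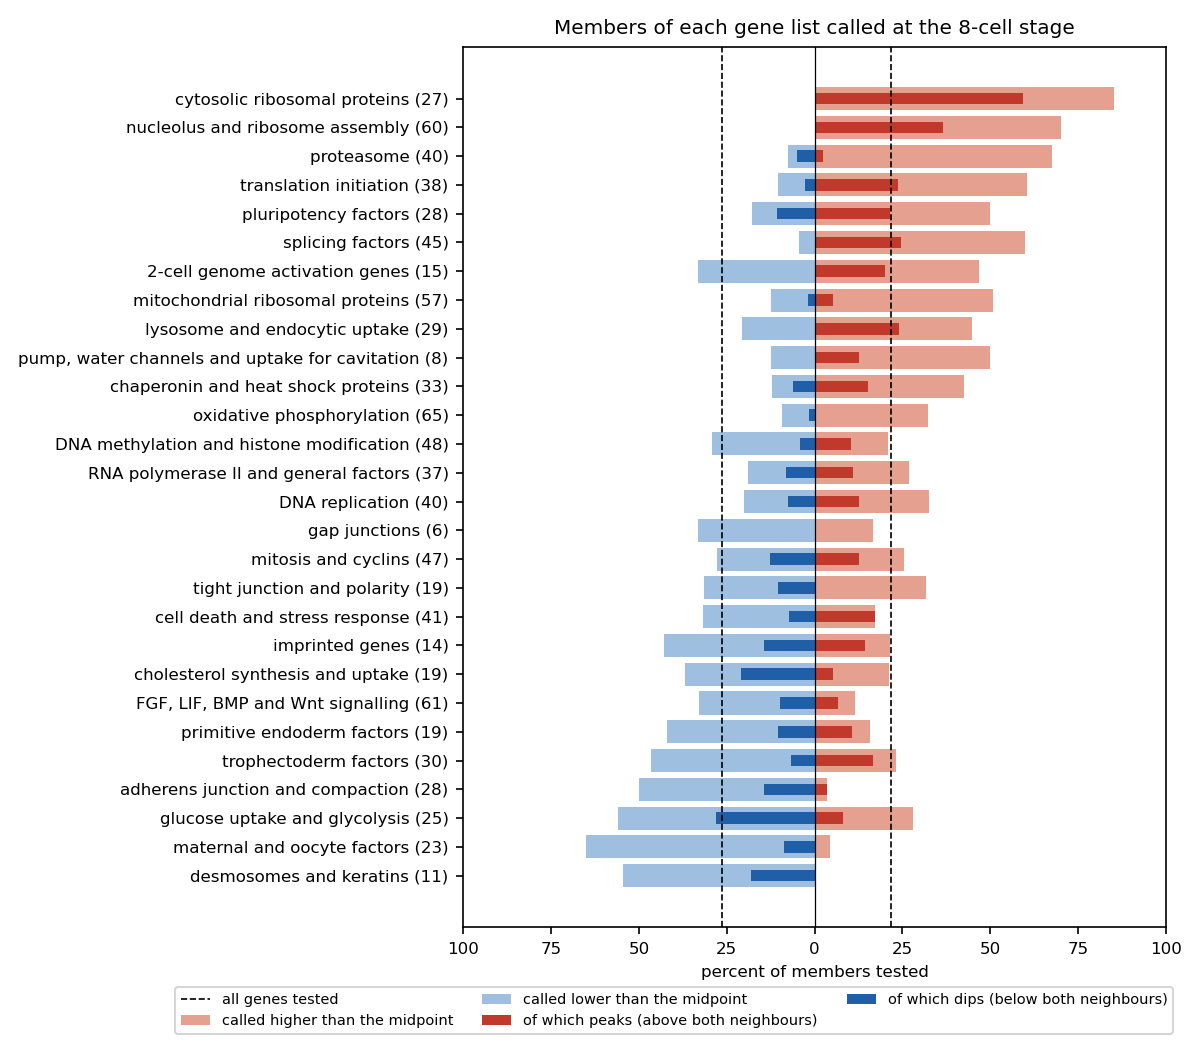
Percent of the tested members of 28 gene lists called higher (right) or lower (left) than the midpoint, with the number tested in brackets and the dark bars giving peaks and dips. Dashed lines mark all genes tested, 21.8% higher and 26.5% lower, and lists are ordered by their median difference.

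Translation initiation factors followed, with 23 of 38 higher (60.5%, all genes: 21.8%), 4 lower and 9 peaks (23.7%, all genes: 8.14%). Their median of 0.58 turned to -0.32 with spike scaling (all genes: -0.79). Eif5, which triggers GTP hydrolysis at the start codon, read 1862, 2285, 1869 and 2083 at the 8-cell stage against 507, 487 and 517 and 716, 664 and 763. Its difference of 1.73 (SE 0.12, adjusted p = 3.84e-10) came without overlap of arrays. Eif3d, a subunit of the eIF3 complex, rose from 149–308 to 1438–2286 and then fell to 1281–1417. Against them stood Eif2ak4, the GCN2 kinase that restrains initiation when amino acids are short, a dip at 1.1–31.4 against 149–188 before and 46.4–74.6 after. Splicing factors had 27 of 45 higher (60%), 2 lower and 11 peaks (24.4%), with a median of 0.54 that turned to -0.35 with spike scaling (all genes: -0.79). Srsf3, a serine and arginine rich splicing factor, read 1995, 2236, 1426 and 1789.9 on the 8-Cell arrays. Its neighbours read 188, 152 and 135 and 1074, 1355 and 1053, a difference of 2.06 (SE 0.15, adjusted p = 4.34e-10). Hnrnpa1, which binds nascent RNA, peaked at 476–610.2 against 194–272 before and 101–135 after. U2af1, which recognises the 3' splice site, was called lower, at -0.73. RNA polymerase II and its general factors were near the background in both directions, 10 of 37 higher and 7 lower, with a median of 0.01 (-0.83 with spike scaling).

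Most proteasome genes were called higher, with few peaks among them. Of 40 proteasome genes, 27 were called higher and 3 lower, yet only Psmg4, an assembly chaperone, was a peak, at 0.75, which turned to -0.10 with spike scaling. Their median was 0.65, and -0.27 with spike scaling. Psma6, a subunit of the core particle, had gone from 922–1802 at the 2-cell to 4959.9–5839 at the 8-cell stage and read 3077–4173 in the blastocyst. Psme4 and Psmd5, an activator and an assembly factor of the complex, were dips. Psme4 read 172–244 against 1514–1734 before and 428–478 after. Mitochondrial ribosomal proteins had 29 of 57 higher and 7 lower, with a median of 0.41 (-0.46 with spike scaling), 3 peaks and the dip Mrps25, a call that a second probe set did not share. Oxidative phosphorylation had 21 of 65 higher and 6 lower, 38 not being called, no peak and 1 dip, Ndufa2, with a median of 0.15 (-0.65 with spike scaling). Uqcrb and Cyc1 of complex III were still rising, from 209.8–294 over 2109–2616 to 2898–4624 for Uqcrb. A second probe set of Cyc1 fell from the 2-cell stage instead, with means of 939, 645 and 534 over the 3 stages.

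Of 33 chaperone genes of the cytosol and the endoplasmic reticulum, 14 were higher and 4 lower, 5 were peaks and 2 dips, and they had a median of 0.27 (-0.61 with spike scaling). Hspa8, the constitutive cytosolic chaperone, read 7924, 10025, 6702 and 7185 at the 8-cell stage, above 654, 649 and 1213 and 4510.2, 5908 and 5408. Its difference was 1.93 (SE 0.17, adjusted p = 9.33e-09), and Dnaja1 and Stip1, cofactors of cytosolic chaperones, were peaks too, at 1.51 and 1.28. Hsp90b1 and Hspa5, chaperones of the endoplasmic reticulum, were the dips. Hsp90b1 read 118, 457, 299 and 193 against 507–641 before and 1137–1923 after, with a difference of -1.91 (SE 0.24, adjusted p = 1.2e-06). Hspa5 read 517, 1263, 750 and 926 against 1226–1524 before and 1644–1944 after, and its 8-Cell array 2 overlapped the 2-Cell arrays. The stress-inducible Hspa1a, known for its burst at genome activation, fell over both steps, and its difference from the midpoint of -0.14 did not pass the test.

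Ctsz, Ctsa and Lamp2 of the lysosome were among the 15 strongest peaks. Of 29 lysosomal and endocytic genes, 13 were called higher (44.8%, all genes: 21.8%) and 6 lower (20.7%, all genes: 26.5%). There were 7 peaks (24.1%, all genes: 8.14%) and no dips, and the median of 0.37 turned to -0.52 with spike scaling (all genes: -0.79). Ctsz, a cathepsin that trims proteins from their carboxyl end, read 498, 639, 480.2 and 969.5 at the 8-cell stage. It read 54.7, 45.5 and 114 before and 72.8, 67 and 83.2 after, a difference of 2.96 (SE 0.23, adjusted p = 1.38e-09). Ctsa, the protective protein of lysosomal sialidase, read 1409, 1489, 1531 and 1969, against 107, 203 and 372 at the 2-cell and 433, 346 and 430.3 at the blastocyst stage. Lamp2, a major protein of the lysosomal membrane, read 627, 864, 844 and 987 against 112–216 before and 162–220.1 after. These 3 remained peaks with spike scaling, though a second probe set of Lamp2, with stage means of 404, 430 and 91, fell only after the 8-cell stage. Ctsc, Ctsb, Cd63 and the cholesterol-binding Npc2 were peaks as well, at differences of 1.56, 1.34, 1.32 and 1.31. For Ctsb, 2-Cell array 3 overlapped the 8-Cell arrays, at 741, 924 and 1309.7 against 1240.5, 1195, 1495 and 1856. Ctsl lay above all 6 neighbouring arrays too, though its step from the 2-cell stage missed the threshold (adjusted p = 0.0597), and its call against the midpoint was lost after quantile normalization (0.51).

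Of 28 pluripotency factors, 14 were higher (50%, all genes: 21.8%) and 5 lower (17.9%, all genes: 26.5%). There were 6 peaks (21.4%, all genes: 8.14%) and 3 dips (10.7%, all genes: 8.45%), and the median of 0.57 turned to -0.32 with spike scaling (all genes: -0.79). Klf4, one of the Krüppel-like factors of embryonic stem cells, read 1213, 1577, 1205 and 1592 at the 8-cell stage. It read 432, 439 and 450.4 before and 549, 453 and 644 after, without overlap and with a difference of 1.48 (SE 0.15, adjusted p = 7.59e-08). Klf2, its relative, went from 7.5, 8.7 and 6.2 to 137, 119, 129 and 45.8 and then 44.8, 39 and 18.3, with 8-Cell array 4 close to the blastocyst level. Fbxo15, an F-box gene used as a marker of pluripotent cells, read 18376, 17129.8, 14087 and 14532. Its neighbours read 5096–7649 and 3456–4689, the difference was 1.73 (SE 0.15, adjusted p = 1.09e-08), and it remained a peak with spike scaling. Nr5a2, a nuclear receptor that acts on Pou5f1, Dppa2 and Tbx3 were peaks at 1.52, 1.48 and 1.26. Tbx3 read 111, 117, 113 and 104 against 21.7–33.3 before and 43.6–64.6 after.

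Nanog, required for the inner cell mass, was already most of the way to its blastocyst level. It read 42.5, 24.5 and 47 at the 2-cell, 1178, 1174, 1029 and 901 at the 8-cell and 1789, 1626 and 1762 at the blastocyst stage. Pou5f1, which codes for OCT4, had risen from 290.1–459 to 651–795 and stayed, with a difference of 0.63 that turned to -0.28 with spike scaling. Klf5 rose likewise from 188–209.7 to 739–1014, and its call against the midpoint (0.80, adjusted p = 0.0188) was lost with an offset of 1, with array weights and without 8-Cell array 4 (0.73), and its sign turned with spike scaling (-0.11). Sox2, the partner of OCT4, was a dip ahead of a large rise, at 58.1, 71.1, 88.4 and 92.3 against 188, 129 and 75.6 before and 1319, 1178 and 843 after. One 2-Cell array overlapped the 8-Cell arrays, and the difference was -2.14 (SE 0.20, adjusted p = 2.15e-08). Fgf4, the growth factor that inner cells send to their neighbours, was a dip as well, at 212–254 against 342–406 before and 329.6–379.8 after. Tcl1, a coactivator of the kinase AKT, was the third dip, at 31–84.4 against 1673–3981 before and 91.6–128 after. Zfp42, the marker REX1, was in transit from 129–178 to 791–1477, and its 8-cell level did not differ from the midpoint by the test (0.37, adjusted p = 0.124), except without Blastocyst array 3 (0.50). Upp1, a uridine phosphorylase of the same list, was not called (0.23), while its other probe set was called lower at -3.10. Esrrb, another factor of this group, was too dim to test, at 6 to 38.4 over all arrays.

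Trophectoderm factors were called higher about as often as all genes and lower more often. Of 30, 7 were higher (23.3%, all genes: 21.8%) and 14 lower (46.7%, all genes: 26.5%). There were 5 peaks (16.7%, all genes: 8.14%) and 2 dips (6.67%, all genes: 8.45%), with a median of -0.41 (-1.21 with spike scaling). From the 2-cell stage 11 rose and 3 fell, while 18 stood below the blastocyst and 6 above it. Tead4, the factor that starts the trophectoderm programme, read 620.5, 559, 427 and 554 at the 8-cell stage. It read 283, 273 and 319 before and 326, 339.5 and 277 after, a difference of 0.80 (SE 0.13, adjusted p = 2.84e-05), which turned to -0.09 with spike scaling, and its 3 other probe sets were called higher too. Tfap2c, a partner in that programme, read 1719.5, 2054, 2078 and 2242 against 417–487 before and 1151–1609.7 after. The coactivator Wwtr1 and the kinase Lats2, opposing arms of Hippo signalling, were peaks at 0.93 and 1.52. Tead2, a relative of Tead4, was a dip at 4.3–13, against 11.8–38.2 before and 58.6–88 after. Yap1, the other coactivator, had fallen from 3107–3442 to 682–716 and read 618–814 in the blastocyst.

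Id2 and Id3, targets of BMP signalling that block bHLH factors, went opposite ways. Id3 rose from 8.8, 21.7 and 26.5 at the 2-cell stage to 687, 409, 609 and 483 and then fell to 173, 194 and 141, with a difference of 2.93 (SE 0.25, adjusted p = 4.19e-09). Id2, later one of the earliest trophectoderm markers, was a dip at 44.2, 72.7, 309.8 and 35.3, against 238, 210.3 and 165 before and 3943, 5344 and 3262 after. Its 8-Cell array 3 lay above all 2-Cell arrays, and the difference was -3.36 (SE 0.35, adjusted p = 9.26e-08). Markers of the finished epithelium were still ahead. Eomes read 12.7–34.2 at the 8-cell stage and 361–627 in the blastocyst, Gata3 84.5–151 and 681–928, and Elf5 1.1–6 and 112–284. The keratins Krt8 and Krt18 had begun to rise, Krt8 from 24.6–38 to 125, 375, 262 and 421 on the way to 3231–4331. Cdx2, the best known factor of this lineage, was too dim to test, at 2.2 to 15.8 over all arrays.

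**Figure D5:**
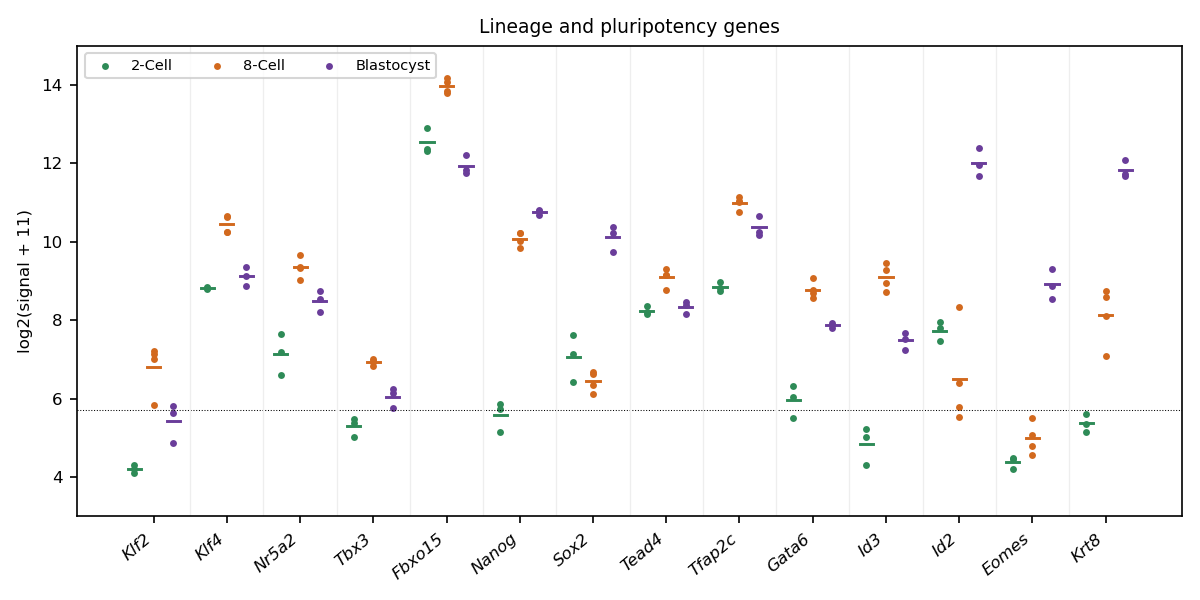
Signals on the log2(signal + 11) scale of 14 pluripotency, trophectoderm and endoderm genes at the 2-cell, 8-cell and blastocyst stages, with 1 point per array and a bar at the stage mean. Klf2, Klf4, Nr5a2, Tbx3, Fbxo15, Tead4, Tfap2c, Gata6 and Id3 are highest at the 8-cell stage, while Nanog, Sox2, Id2, Eomes and Krt8 are highest in the blastocyst.

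Among 19 primitive endoderm genes 3 were higher (15.8%, all genes: 21.8%) and 8 lower (42.1%, all genes: 26.5%), with a median of -0.39 (-1.27 with spike scaling). From the 2-cell stage 7 rose and 3 fell, while 11 stood below the blastocyst and 3 above it. Gata6, the first factor of this lineage, peaked at 532, 370, 422 and 401 against 54.4, 68.8 and 34.7 before and 212, 231 and 226 after, a difference of 1.86 (SE 0.17, adjusted p = 1.03e-08). Sox17, which follows Gata6, and Nid2 of the basement membrane were dips, at 26.8–56.2 against 73.8–85.9 before and 106–206 after for Sox17.

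Adhesion transcripts were called lower than the midpoint more often than higher, mostly because they stood below the blastocyst. Of 28 genes of the adherens junction and compaction, 14 were called lower (50%, all genes: 26.5%) and 1 higher, Rhoa. The median was -0.44 (-1.28 with spike scaling), and 4 were dips. From the 2-cell stage 6 rose and 8 fell, with a median of 0.11. Against the blastocyst 18 were lower and 3 higher, with a median of -0.98. Cdh1, which codes for E-cadherin, read 222, 229.5 and 182 at the 2-cell, 202, 168, 114 and 133 at the 8-cell and 166, 179 and 101 at the blastocyst stage. The 8-Cell arrays overlapped both neighbours, and its difference of -0.20 did not pass the test (adjusted p = 0.375). Ctnnb1, β-catenin, was called lower at -0.61 (SE 0.13, adjusted p = 0.000452), with a rise by the blastocyst from 501–806 to 1169.6–1355. Ctnna1, α-catenin, had the same late rise, from 625–908 to 1143–1819, but was not called against the midpoint (-0.30, adjusted p = 0.126), except without 8-Cell array 4 (-0.42). Ezr, the linker of membrane and actin found at the outer pole, read 31.2–77.6 at the 8-cell stage and 380.3–426 in the blastocyst. Its relative Rdx was a dip at 116, 202, 204 and 281 against 1009, 912 and 852 before and 489, 389 and 581 after, a difference of -1.74 (SE 0.18, adjusted p = 6.61e-08). The GTPase Rac1, the actin regulator Vasp and Cdh2, N-cadherin, were dips too, at -0.97, -1.77 and -1.86. Rhoa was a peak at 0.57, but 2 other probe sets were not called, the mean over its probe sets lost the call (0.34), and the sign turned with spike scaling (-0.34).

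Tight junction and polarity genes divided evenly, 6 of 19 higher and 6 lower (31.6% each, against 21.8% and 26.5% of all genes), with no peak, 2 dips and a median of -0.11 (-0.98 with spike scaling). Claudins 4 and 7 were rising. Cldn7 read 2.5, 4.2 and 3.7 at the 2-cell, 217, 231, 209.5 and 254 at the 8-cell and 556, 478 and 677 at the blastocyst stage, and Cldn4 rose from 6–33.5 over 252–418 to 631–799. F11r, the junctional adhesion molecule A, rose from 426–623 to 1546–2393 and did not differ from the blastocyst by the test (adjusted p = 0.3). Cldn6 and Dlg1, a scaffold of the basal and lateral membrane, were dips, at -1.23 and -1.04. Tjp1, which codes for ZO-1, was called higher at 0.42 (adjusted p = 0.029), a call lost without an intensity trend, with array weights, in the 3 stages alone, with the replicate block and without 2-Cell array 3 (0.33), 8-Cell array 4 (0.30) or Blastocyst array 2 (0.35), while its sign turned with spike scaling (-0.49). Ocln, occludin, and the atypical protein kinases C of the apical pole, Prkci and Prkcz, did not differ from the midpoint by the test, at 0.13, -0.49 and 0.15, except for Prkci with array weights (-0.59) and without 2-Cell array 3 (-0.67). Of 11 desmosome and keratin genes 6 were lower and none higher, with a median of -0.94 (-1.66 with spike scaling). From the 2-cell stage 3 rose and 2 fell, with a median of 0.29, while 8 stood below the blastocyst, with a median of -2.63. Dsc2, a desmosomal cadherin, and Pkp4, a plakophilin, were dips. Dsc2 read 1.5–13.5 against 16.7–27.4 before and 259–336 after, and Pkp4 111–241 against 850–1068 before and 341–481 after.

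Of 6 gap junction genes, 1 was called higher, Gja1 described above, and 2 lower, with a median of -0.04 (-0.69 with spike scaling). Gja4, connexin 37 of the oocyte, had fallen from 45.9–70 to 5.6–9.1, and Gjb5 read 47.7–80.2 before its rise to 339–514. Among 8 genes of ion pumps, water channels and uptake, 4 were higher and 1 lower, with a median of 0.33 that turned to -0.48 with spike scaling. Slc12a2, the sodium, potassium and chloride cotransporter, was the peak, at 2399, 4025, 2926 and 3614 against 542, 877 and 1657 before and 399, 282 and 293 after, and remained one with spike scaling. Its difference was 2.52 (SE 0.23, adjusted p = 1.15e-08). Atp1b1, the β1 subunit of the sodium pump, was dim and not called against the midpoint (-0.35), except without 2-Cell array 3 (-0.50).

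Among cell cycle genes, the shares called for mitosis were close to those of all genes, 21.8% higher and 26.5% lower. DNA replication had 13 of 40 higher (32.5%) and 8 lower (20%), with a median of -0.03 (-0.87 with spike scaling), and mitosis genes 12 of 47 higher (25.5%) and 13 lower (27.7%), with a median of -0.06 (-0.89). Cdc6, which licenses replication origins, peaked at 1715, 1649.7, 2234 and 2519.5 against 674, 710.1 and 736 before and 678, 698 and 1113 after, a difference of 1.39 (SE 0.16, adjusted p = 2.85e-07). Its partner Cdt1 was a peak at 0.76, which turned to -0.14 with spike scaling. Orc5 of the origin recognition complex was a dip, at 95.6–185 against 683–1529 before and 243–297 after, and so were the replication clamp Pcna, at -0.52, and its loader Rfc5, at -1.30, although a second probe set of Rfc5 was not called. Cdc25a, the phosphatase that releases CDK2, read 322, 399, 434 and 792 against 136–198 before and 156–266 after. Cdkn1a, the CDK inhibitor p21, was a peak as well, at 469.7, 456, 348 and 341 against 223, 189.5 and 233 before and 178, 106 and 74.7 after, with a difference of 1.30 (SE 0.19, adjusted p = 9.74e-06). The checkpoint kinase Ttk was a dip at -1.62, and securin, Pttg1, at -1.58, which was lost among probe sets without a cross-match suffix (-0.46). Ccne1 and Ccnd3, cyclins that decline and rise through these stages, did not differ from the midpoint by the test, though Ccne1 was called higher in 4 other settings (0.36 to 0.45). Neither did Myc and Mycl, at -0.17 and 0.59, except for Mycl without 8-Cell array 3 (0.95).

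Chromatin genes had 10 of 48 higher (20.8%) and 14 lower (29.2%), close to the 21.8% and 26.5% of all genes, with a median of 0.03 (-0.85 with spike scaling). Smarca4 and Smarca2, alternative ATPases of the SWI/SNF remodelling complex, diverged. Smarca4 peaked at 778, 654, 706 and 854 against 299–467 before and 235–282 after, while Smarca2 had fallen from 742–1159.8 to 9.1–26.5 and stayed at 17.5–25.5. Hdac1, the main deacetylase of the early embryo, peaked at 1047, 880.1, 931 and 1008 against 354, 424 and 492 before and 327, 344 and 537 after, a difference of 1.23 (SE 0.21, adjusted p = 7.52e-05). Dnmt1, the maintenance methyltransferase that Uhrf1 recruits, was called lower at -0.72, but a second probe set was called higher at 0.66 and their mean gave -0.03, so no direction can be given. Nap1l1, a histone chaperone, was a peak at 1.66, and its other probe set was not called. Carm1, an arginine methyltransferase of histones, was not called at 0.64 (adjusted p = 0.106), except with array weights (1.02) and without 8-Cell array 1 (0.99).

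Of 61 signalling genes, 20 were called lower (32.8%, all genes: 26.5%) and 7 higher (11.5%, all genes: 21.8%), with a median of -0.22 (-0.93 with spike scaling) and 12 lower under the stricter filter, which tests fewer genes. Il6st and Jak1, which carry the LIF signal into the cell, were dips. Il6st, the shared receptor gp130, read 4.9, 26, 31.6 and 12.4 against 213, 152 and 172 before and 57.9, 55.6 and 56.1 after, a difference of -2.03 (SE 0.22, adjusted p = 1.76e-07), and the kinase Jak1 63–106 against 130.5–175 before and 188–221 after. Sos1, the exchange factor that links receptors to RAS, was a peak at 1.78, although 2-Cell array 3 overlapped the 8-Cell arrays, at 50.3, 119 and 223 against 214, 291, 216 and 329. Fgfr2, the receptor for FGF4 on outer cells, was on its way up, from 86.8–121 over 243–492 to 730.3–930.2, and did not differ from the midpoint by the test.

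In cholesterol synthesis 4 of 19 genes were higher (21.1%, all genes: 21.8%) and 7 lower (36.8%, all genes: 26.5%), 4 of them dips, with a median of -0.17 (-0.78 with spike scaling). Idi1, Hmgcs1 and Hsd17b7, enzymes of early and late steps, were dips at -1.59, -1.32 and -1.52. Idi1 read 119, 90.1, 144 and 90 against 375, 221 and 151 before and 399, 499.8 and 706 after. Msmo1, the sterol-C4-methyl oxidase between them, was a peak, at 330.1–444 against 48.1–82.8 before and 124–253 after.

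Of 41 genes of cell death and stress, 7 were called higher (17.1%, all genes: 21.8%) and 13 lower (31.7%, all genes: 26.5%). All 7 called higher were peaks (17.1% of the list, all genes: 8.14%), and the median was -0.15 (-0.97 with spike scaling). Ddit4, which restrains the growth kinase mTORC1, read 1839, 2261, 1485 and 2048 at the 8-cell stage, 511, 755 and 987 before and 92.9, 127 and 72.5 after. Its difference was 2.76 (SE 0.17, adjusted p = 7.53e-11), and it remained a peak with spike scaling. Casp6, an executioner caspase, appeared at 425–646 from 17.2–24 and then read 286–398. Mcl1, a survival factor of the BCL2 family, peaked at 1.21, and its relative Bcl2l10 had fallen from 2898–6136 to 81.7–163. The metallothioneins Mt1 and Mt2, which bind zinc, were peaks at 1.37 and 0.74, though Mt2 turned to -0.02 after quantile normalization and -0.17 with spike scaling.

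Of 14 imprinted genes, which are expressed from the copy of a single parent, 3 were higher and 6 lower, with a median of -0.15 (-0.83 with spike scaling). Xist, the RNA that silences an X chromosome, had risen from 36.5, 35.6 and 40.3 to 533, 614, 483 and 264 and read 322, 579 and 203 in the blastocyst. Igf2r, the receptor that clears IGF2, was a peak at 1.02, and Mest a dip at -2.11, from 181–300.3 over 3.3–34.6 to 28–48.1.

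Transcripts stored in the oocyte were low. Of 23 genes 15 were called lower and 1 higher, Dppa3, with a median of -0.80 (-1.26 with spike scaling). At the step from the 2-cell stage 19 were lower (all genes: 29.6%). Btg4, which licenses the removal of maternal RNA, fell from 6207, 5691 and 3793 to 69.1, 42.9, 35.2 and 45.6 and further to 11.2, 4.9 and 3.2. The growth factor Gdf9 and the egg coat proteins Zp2 and Zp3 fell by log2 differences between -4.64 for Zp2 and -2.65 for Zp3. Spin1, a histone reader of the oocyte, went from 3327–4689.8 to 176–251. The linker histone H1f8 was called lower at -0.49 (adjusted p = 0.0315), a call that the replicate block and 10 other settings ended. Mos, the kinase that holds the egg in meiosis, was not called against the midpoint (-0.43), except without 2-Cell array 1 (-0.60). Plat, a protease stored in the oocyte, was a dip at -1.56. Dppa3, in contrast, read 5583–6192 at the 2-cell and 5693–7577 at the 8-cell stage and fell later, a difference from the midpoint of 0.78 that was lost after quantile normalization (0.09) and turned to -0.14 with spike scaling.

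Genes known for the burst of transcription at the 2-cell stage did not all fade together. Of 15, 7 were higher (4 after quantile normalization) and 5 lower, with a median of 0.53 that turned to -0.38 with spike scaling. Tcstv1 and Usp17la had gone, from 1300.5–2791 to 36.8–77.7 and from 66.7–155 to 5–16.7. Crxos, Pramel7 and Eif1a were peaks instead. Crxos, a homeobox gene, read 8033, 8723, 7588 and 8012 against 1489, 1324 and 3094 before and 4362, 4279 and 6293 after, and Pramel7 5024–6563 against 2387–3498 before and 2320.3–2769.8 after. A second probe set of Crxos was not called, and the call of Pramel7 was lost after quantile normalization (0.58). Pramel6 had risen from 1748–1988 to 3424–5207, a difference of 0.75 that quantile normalization also ended (0.34) and spike scaling turned (-0.17). The call of Usp17la, -1.12, was lost with an offset of 1 (-1.40). Eif1a read 1399, 1451, 1635 and 1673 against 382–479 before and 916–963 after, a difference of 1.24 (SE 0.16, adjusted p = 1.82e-06).

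Transcripts that mark other cells were measured on the same arrays. Summed over the 13 oviduct and uterus markers tested, the signal was 666 to 8018 on 8-Cell arrays, 1824 to 2471 on 2-Cell and 860 to 1108 on Blastocyst arrays, and the highest sum belonged to 8-Cell array 2. There Ovgp1, the oviduct glycoprotein, read 6212 against 43.1 to 114 on the other 8-Cell arrays and 688–1272 on 2-Cell arrays. Ltf, lactotransferrin, read 828 there, against 6 to 11.4 and 167–291. Neither was called with all arrays. Without that array Ovgp1 turned to -1.15 and both were called lower, as were 4 of the 13 markers in place of 1, Wfdc2. Cumulus and granulosa markers, of which 4 of 12 on the array were bright enough to test, summed to 509 to 648 on 8-Cell, 502 to 593 on 2-Cell and 394 to 576 on Blastocyst arrays, with 1 of 4 called higher, Inhba, a call lost without 6 of the 10 arrays in turn. Blood markers, 7 of 11 tested, summed to 524 to 772, 596 to 704 and 306 to 401 in the same order, with 1 of 7 called higher, Spi1, and sperm and testis markers, 5 of 14 tested, to 259 to 440, 513 to 602 and 185 to 333, with 1 of 5 called lower, Ldhc, at 2.5–9.2 on the 8-Cell arrays. The part of such cells in the results was not tested. Without 8-Cell array 2, 1215 genes were higher and 1521 lower, with 444 peaks and 492 dips.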

How the data were processed

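Signals from 17 GeneChip arrays were analysed as intensity values in the deposited series table. Every array had the same trimmed mean over the central 96% of its values (150.1 to 150.13), so the authors' intensities had been scaled to one target; the software is not given in the sources used here. Here 11, the 25th percentile of all values, was added and log2 taken. Probe sets at 41.1 or more on at least 3 arrays were tested. limma 3.58.1 in R 4.3.3 fitted 1 mean per stage with an intensity trend (12 residual degrees of freedom), and p-values were Benjamini-Hochberg adjusted over the 8067 probe sets. Symbols came from the platform annotation, updated through a RefSeq table: 10833 probe sets had 1 symbol, 396 several and 1193 none, the latter groups going unnamed. A gene stands for its probe set of highest mean signal, and 19 of 557 called genes with several probe sets had one called the opposite way. The scripts were tested on simulated data. Alternatives were other scalings, offsets, filters, variance models and probe set rules, the replicate number as a block, and each array left out.

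Genes are named by rule. The first are the 15 peaks and 15 dips without overlap of arrays that lie farthest from the nearer neighbour. Next are the 8 largest differences in each direction among other called genes without overlap with at least 1 neighbour. Added to them are up to 6 members of each gene list by size, any member that is a peak or dip, and landmark genes of these stages. Of these, Cdx2, Esrrb and Id1 were too dim to test, and some others are not reported here. Slc5a6, Cyc1, U2af1, Hk2, Hif1a, Ctsl, Yap1, F11r and Dppa3 were chosen after their values were seen. Members and lists were chosen with earlier results of these data known.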

Additional observations from a re-analysis of the deposited data

Results flagged for a closer look

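Among 208 named genes, 8 (3.85%) had 1 8-Cell array far from the other 3, where the gap to the nearest array exceeded Dixon's critical value for 4 samples, a limit that chance passes in about 1 of 20 groups. Array 4 was high for Slc5a6, at 3083.3 against 2345.4 to 2457.5, and for Ldhc, at 9.2 against 2.5 to 3.2. It was low for Klf2, at 45.8 against 118.7 to 136.7, and for Mt1, at 770.3 against 1406.1 to 1581.3. Array 3 was high for Ptov1, at 22.3 against 9.3 to 10.2, and low for Cldn6, at 28.3 against 52.5 to 58.9. Array 2 was low for Rasa4, at 7.9 against 13.1 to 14.3, and high for the oviduct transcript Ltf, at 827.7 against 6 to 11.4. Without array 2, Ltf was called lower than the midpoint, at -1.50. The cause of these single values was not tested.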

How the results depend on the processing

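The choice with the most effect was the reference for scaling. With arrays scaled to the spikes, 181 genes were higher and 3647 lower than the midpoint, with 45 peaks and 1547 dips, of which 39 and 1304 had no overlap of arrays; 623 genes were higher than at the 2-cell stage, and 138 were higher and 3594 lower than in the blastocyst. Signs turned for Rps24 (-0.092), Hk1 (-0.26), Klf5 (-0.11), Pou5f1 (-0.28), Tead4 (-0.093), Rhoa (-0.34), Tjp1 (-0.49), Cdt1 (-0.14), Fgfr2 (-0.69), Mt2 (-0.175), Dppa3 (-0.14), Pramel6 (-0.17), Actb (-0.39), Upp1 (-0.64), Psmg4 (-0.10), Inhba (-0.028) and Prkcz (-0.69). Of 208 named genes, 188 were called. Apart from the genes whose sign turned, 35 of these calls were lost under this scaling. In every other setting run, genes higher numbered 1098 (stricter filter, 3791 genes tested) to 1445 (quantile normalization) and genes lower 1298 to 1671. Mt2 turned to -0.017 after quantile normalization, Upp1 to -1.44 with the mean over probe sets and Ovgp1 to -1.15 without 8-Cell replicate 2, the lowest of its values with 1 array left out, whose highest was 1.14 without 8-Cell replicate 4. Leaving out each array gave 1204 to 1335 genes higher, 1512 to 1604 lower, 414 to 509 peaks and 459 to 523 dips, and 5 named calls were lost in at least 1 of these fits. Of the other settings together, 14 named calls were lost in at least 1 with the sign kept, and that of Mt2 with its sign turned. The cause of these changes was not tested.

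With the replicate block, 1266 genes were higher and 1537 lower, with 466 peaks and 482 dips, and among named genes the calls of Tjp1, H1f8 and Inhba were lost and no other. Deviations of same-numbered arrays from their stage means correlated at -0.03 to 0.011 between 2-Cell and 8-Cell arrays and at 0.074 to 0.125 between 8-Cell and Blastocyst arrays, so the numbers were not treated as pairs.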
